A study of Homo sapiens with 24 samples.

Results

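The cytoplasmic ribosomal proteins are the protein components of the ribosomes that translate nuclear messages. They were taken from the deposited expression table by name: protein-coding genes called RPL or RPS, optionally P, and a number, with an optional A or X, L and 1 at the end, together with RPSA, and without the RPS6K kinases. This gave 85 of the 58735 genes in the table, of which 19951 are protein-coding. Of the 85, 53 belong by name to the large subunit and 32 to the small subunit, and 8 carry an L or L1 that marks a second gene for a similar protein (RPL3L, RPL7L1, RPL10L, RPL22L1, RPL26L1, RPL36AL, RPL39L and RPS27L).

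RNA was sequenced from Nalm6 and Sem, both established cell lines from acute lymphoblastic leukaemia of B cell precursors. Each line was left untreated, or was given 10 µM ibrutinib, asparaginase, or both (the combination) for 24 h, with 3 libraries in each of the 8 groups. Ibrutinib is a covalent inhibitor of Bruton's tyrosine kinase, and asparaginase is an enzyme that removes extracellular asparagine. The asparaginase dose is 1 IU/ml in the series' design text and 0.5 IU/ml in the treatment protocol, and the harvest time of the untreated cells is not stated. All cells were grown in RPMI with fetal bovine serum, and the labels name no engineered allele. Separate cultures are not described for the 3 libraries of a group, so each p-value reflects no more than how far these libraries spread, and that spread may be technical.

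Each ribosome holds 1 copy of nearly every ribosomal protein, so cells make the proteins of both subunits in matched amounts and degrade what is not assembled. Most of their messages begin with a C followed by a run of C and T, the terminal oligopyrimidine (TOP) tract, through which mTORC1 and LARP1 control their translation. Several paralogues replace a standard protein in some tissues, and haploinsufficiency of individual members, RPS19 and RPS26 among them, causes Diamond-Blackfan anaemia.

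The starts of 8 members are shown because the results turn on these genes. Each line gives 10 bases before and 20 bases from an annotated start on the gene's own strand, from RefSeq on GRCh38.p14, with the run of C and T that begins with a C at the start in capitals. The windows are chr1:153990752-153990781 (plus strand) for RPS27, chr9:127451387-127451416 (minus) for RPL12, chr1:6199576-6199605 (minus) for RPL22, chr3:170870176-170870205 (minus) for RPL22L1, chr12:56041908-56041937 (plus) for RPS26, chr15:63157458-63157487 (minus) for RPS27L, chr14:49620607-49620636 (minus) for RPL36AL and chr6:42879606-42879635 (plus) for RPL7L1.
RPS27: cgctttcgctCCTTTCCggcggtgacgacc
RPL12: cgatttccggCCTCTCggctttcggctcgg
RPL22: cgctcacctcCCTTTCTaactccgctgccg
RPL22L1: ccgtagcttcCTCTCTgctctcgcggccga
RPL36AL: tcttccctttCCTgttaggcgagagctgcg
RPS26: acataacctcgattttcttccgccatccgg
RPS27L: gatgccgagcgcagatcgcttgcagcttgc
RPL7L1: gtgcggcgccgtagctaggagcggacgcca
In these windows RPS27 and RPL22 have runs of 7 letters, RPL12 and RPL22L1 runs of 6, and RPL36AL 3 letters. RPS26, RPS27L and RPL7L1 have none at this start. A start was counted as TOP where a C was followed by at least 4 letters that were each C or T, read on the gene's strand only. By this count 47 of the 68 members matched in the RefSeq promoter table (69.1%) had a TOP start at one of their listed starts, against 1404 of 27305 genes in the table (5.14%). The same count gave 947 of 14896 protein-coding genes of the expression table (6.36%). Where the C could lie within 5 bases of the start, 55 members (80.9%) and 25.2% of genes in the RefSeq table qualified. The RPL36AL start printed above is among those that qualify only by this wider count. These matches describe the annotated starts and say nothing of which start the cells used.

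Libraries held 15 to 18.1 M reads assigned to genes. All 10 B cell precursor markers reached 1 FPKM in Nalm6, with a summed level of 1931 to 2932 FPKM. In Sem 8 of 10 did, at 550.0 to 816 FPKM in sum, with RAG1 at no more than 0.133 FPKM and DNTT at no more than 0.371 FPKM. No erythroid marker of 5 reached 1 FPKM in either line. Of 8 myeloid markers, 1 reached it in Nalm6 (LYZ, up to 14.2 FPKM) and 2 in Sem (LYZ, up to 1.5, and CSF1R, up to 4.56), with summed levels of 4.23 to 14.5 and 2.03 to 6.47 FPKM. Of 7 T and NK cell markers, TRAC and NKG7 reached it in both lines, with sums of 1.47 to 11.7 FPKM in Nalm6 and 84.2 to 124 in Sem, where TRAC stood at 70.5 to 99.4 and NKG7 at 10.5 to 24.6 FPKM. CD3D and CD3E were at 0 in all libraries. The part of these markers in the results was not tested. In Nalm6, 3 libraries stood apart from their groups by correlation (untreated 2, asparaginase 1 and combination 1). Their log2 levels had slopes on GC content of -0.063, -0.032 and -0.119 per 10 percentage points. The other untreated, asparaginase and combination libraries of that line had slopes of 0.04 to 0.083. All ibrutinib libraries of Nalm6 had negative slopes, from -0.068 to -0.036. With the libraries that stood apart left out, slope and ibrutinib alone therefore cannot be told apart in Nalm6. Counts that rest on the libraries that stood apart are given with and without them. The part of GC content in the results was not tested beyond a corrected fit described in the closing section.

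Most members were among the highly expressed genes of both lines. The median member stood at 218 FPKM in untreated Nalm6 and 306 FPKM in untreated Sem, and 66 and 68 of the 85 reached 100 FPKM. FPKM is the number of fragments per kilobase of gene and per 1 M reads, so levels of different genes are compared per length. That length is of the annotated gene model, such as 746 bases for RPL36AL and 8626 for RPL14, and may differ from that of the message. Rankings of genes and ratios between them therefore also depend on the annotation. The highest mean in untreated Nalm6 was that of RPS2, at 1016 FPKM, and in untreated Sem that of RPL13A, at 1512 FPKM. RPL10L, an intronless copy best known from testis, was at 0 in all 24 libraries, and RPL3L, the form of heart and skeletal muscle, did not exceed 0.117 FPKM. Both failed the expression filter (at least 1 FPKM in at least 3 libraries), as did RPS10 in Sem, a small subunit gene that shares 39.4% of its exon length with the read-through gene RPS10-NUDT3, which left 83 members tested in Nalm6, 82 in Sem and 83 across the lines.

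Members took 6.41% to 6.83% of the assigned reads of untreated Nalm6 libraries, 6.70% to 7.32% with ibrutinib, 6.61% to 6.69% with asparaginase and 6.33% to 6.67% with the combination. In Sem they took 7.98% to 9.27% untreated, 9.10% to 9.97% with ibrutinib, 8.81% to 9.43% with asparaginase and 10.3% to 10.6% with the combination. Every Sem library thus gave members a larger share than any Nalm6 library, and the Sem combination libraries lay above all other libraries. The lowest Sem share was that of untreated replicate 2, and Sem results against untreated cells are also given without it. In bulk RNA, fewer cells that express a gene and less RNA per cell cannot be told apart.

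The first comparison was between the untreated lines. Sem had higher levels than Nalm6 of 60 of the 83 tested members and lower levels of 7, by limma on log2(FPKM + 1) with a Benjamini-Hochberg adjusted p under 0.05. Over all genes tested, 34.0% were higher and 31.8% lower. The median member differed by 0.47 on the log2 scale (all genes, -0.001). Large subunit genes were higher in 40 and lower in 4 of 51, and small subunit genes higher in 20 and lower in 3 of 32. Without the Nalm6 libraries that stood apart the counts were 59 higher and 8 lower, and without Sem untreated 2 they were 64 and 6.

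RPL21 stood at 345, 374 and 375 FPKM in untreated Nalm6 and at 873, 756 and 903 in untreated Sem, a log2 difference of 1.20 (SE 0.07, adjusted p 4.3e-12). RPS4X, the X-linked form of a small subunit protein, stood at 308, 331 and 334 FPKM in Nalm6 and at 670, 630 and 723 in Sem (1.05, SE 0.05, adjusted p 3.1e-13). RPL31 stood at 71.6, 93.3 and 85.8 FPKM in Nalm6 and at 183, 133 and 173 in Sem (0.95, SE 0.12, adjusted p 8.5e-07). For each of these genes all Sem libraries lay above all Nalm6 libraries. Among the lower members was RPS26, a small subunit protein near the messenger exit channel, at 121, 122 and 133 FPKM in Nalm6 and 91.0, 74.5 and 92.6 in Sem (-0.54, SE 0.07, adjusted p 2.7e-06).

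The largest differences between the untreated lines lay in paralogues. RPL22 and RPL22L1 encode alternative forms of the same large subunit protein, and RPL22 is known to repress RPL22L1. RPL22L1 (chr3:170864875-170870483, minus strand, GRCh38) stood at 124, 162 and 134 FPKM in untreated Nalm6 and at 12.4, 10.6 and 12 in untreated Sem, a log2 difference of -3.47 (SE 0.10, adjusted p 1e-16). RPL22 (chr1:6185020-6209389, minus strand) went the other way, at 25.7, 29.1 and 25.3 FPKM in Nalm6 and 51.7, 46.1 and 52.6 in Sem (adjusted p 4.9e-10). RPL22L1 was therefore 4.82 to 5.57 times RPL22 in each untreated Nalm6 library and 0.228 to 0.24 times RPL22 in each untreated Sem library. The pair thus stood in opposite order in the lines.

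RPL39L, a paralogue of the exit tunnel protein RPL39, stood at 2.86, 3.71 and 3.25 FPKM in untreated Nalm6 and at 17.1, 13.2 and 19.1 in Sem (2.02, SE 0.14, adjusted p 9.7e-11). It was 1.30% to 1.78% of the level of RPL39 in Nalm6 and 6.29% to 6.73% in Sem. RPS27L, a p53-responsive paralogue of RPS27, was at 5.40, 6.85 and 5.46 FPKM in Nalm6 and at 2.90, 2.23 and 2.43 in Sem (-0.97, SE 0.09, adjusted p 5.4e-09). RPL36AL, the paralogue of RPL36A, was lower in Sem by a smaller margin (-0.32, SE 0.07, adjusted p 0.00079). Its libraries ranged from 170 to 194 FPKM in Nalm6 and from 135 to 159 in Sem. Reads of near-identical copies may be split between a gene, its paralogue and its pseudogenes in counting, so the share of each is uncertain. Reads assigned to the members' pseudogenes came to 0.759 to 0.938 per 100 reads assigned to members.

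**Figure D1:**
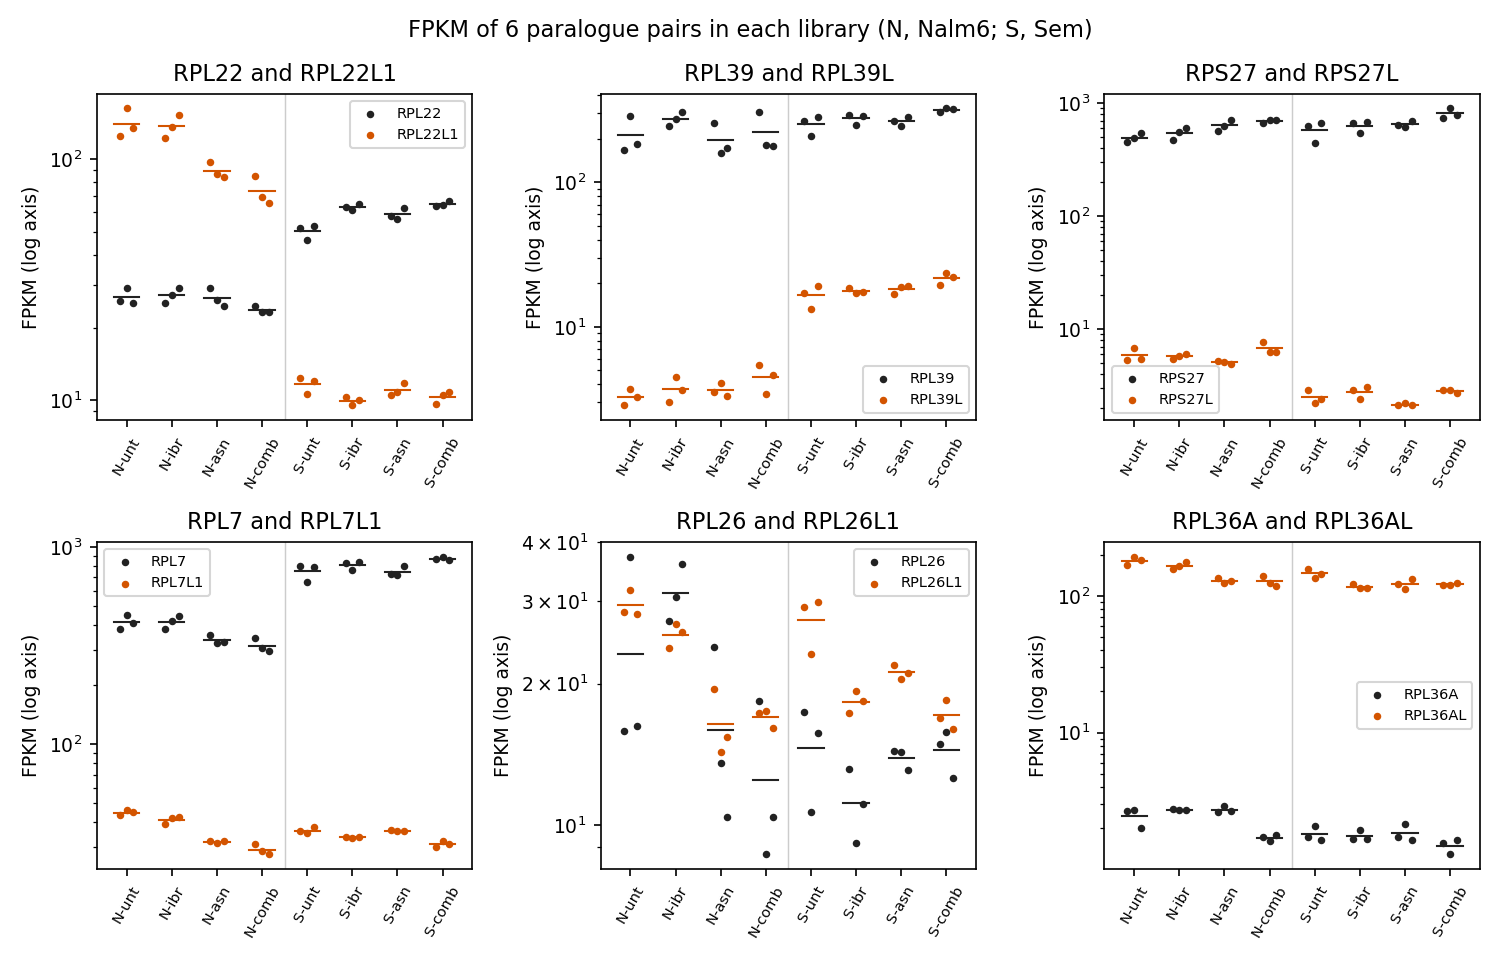
FPKM (log axis) of 6 paralogues in orange and their standard partners in black in each of the 24 libraries, 1 point per library and a line at each group mean, with Nalm6 (N) and Sem (S) untreated or given ibrutinib (ibr), asparaginase (asn) or both (comb). RPL22L1 lies above RPL22 in all Nalm6 libraries and below it in all Sem libraries, with 124 to 162 FPKM of RPL22L1 in untreated Nalm6 and 10.6 to 12.4 in untreated Sem.

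In Nalm6 with asparaginase, 31 of the 83 tested members were lower than in untreated cells and 3 were higher, against 28.0% and 28.2% of all genes tested. Large subunit genes accounted for 22 of those lower (of 51) and small subunit genes for 9 (of 32). The median member changed by -0.14 on the log2 scale, with a median of 0.02 over all genes. Without the libraries that stood apart, 37 members were lower and 8 higher. These directions depended on the scaling of the libraries, which is described with the plot of scalings: after quantile normalization 10 members were lower and 35 higher.

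The lowest was RPS26 (chr12:56041351-56044697, plus strand), which fell from 121, 122 and 133 FPKM in untreated cells to 59.5, 69.8 and 66.6 with asparaginase (-0.93, SE 0.06, adjusted p 4.4e-07). RPL26L1, a paralogue of RPL26 at chr5:172958729-172969771 (plus strand), fell from 28.4, 31.7 and 28.1 FPKM to 19.5, 14.3 and 15.4 (-0.81, SE 0.10, adjusted p 3.8e-05). RPL24, which takes part in a bridge between the subunits, fell from 185, 219 and 190 FPKM to 131, 116 and 118 (-0.70, SE 0.08, adjusted p 3.5e-05). In each of these genes every treated library lay below every untreated one. RPL8, a protein next to the peptidyl transferase centre, fell from 465, 413 and 488 FPKM to 261, 291 and 297 (-0.68, SE 0.08, adjusted p 4.2e-05).

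The 3 members that rose were RPS27, RPS12 and RPL13A. RPS27, a zinc-binding small subunit protein at chr1:153990755-153992155 (plus strand), rose from 457, 491 and 541 FPKM to 569, 627 and 711 (0.35, SE 0.10, adjusted p 0.012). RPL13A, known also as a silencer of inflammatory messages in myeloid cells, rose from 916, 957 and 971 FPKM to 1064, 1088 and 1084 (0.19, SE 0.05, adjusted p 0.0086). RPS12 changed by 0.20 (SE 0.07, adjusted p 0.04). This call was lost without any one of untreated 1, untreated 2, asparaginase 2 or asparaginase 3, and that of RPS27 was lost without asparaginase 3 (adjusted p 0.055).

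With the combination in Nalm6, 37 members were lower than in untreated cells and 2 higher, against 31.3% and 32.4% of all genes. Of the large subunit 26 of 51 were lower, and of the small subunit 11 of 32 were lower and 2 higher. The median member changed by -0.17. Without the libraries that stood apart, 44 were lower and 7 higher. After quantile normalization the majority turned, with 30 higher and 18 lower.

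RPS2 (chr16:1962052-1964860, minus strand), a small subunit protein at the messenger entry channel, fell from 1005, 992 and 1051 FPKM to 550, 524 and 531 (-0.92, SE 0.05, adjusted p 5.8e-08). With asparaginase alone it stood between these levels, at 680, 708 and 668 FPKM, and no 2 of the 3 groups overlapped. RPL22L1 fell to 85.3, 69.4 and 65.8 FPKM (-0.92, SE 0.12, adjusted p 5.5e-05). RPL22 stood at 24.6, 23.2 and 23.2 FPKM with the combination (-0.17, SE 0.08, adjusted p 0.078, not past the threshold), and RPL22L1 was then 2.84 to 3.47 times RPL22. RPS26 was at 68.9, 65.6 and 69.8 FPKM (-0.87, SE 0.06, adjusted p 3.5e-07), within the range of asparaginase alone. RPL8 fell by 0.79 (SE 0.08, adjusted p 8.5e-06).

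RPS27 was again higher, at 667, 710 and 705 FPKM (0.49, SE 0.10, adjusted p 0.0015). RPS12 stood at 1077, 1122 and 1122 FPKM, above the 952, 851 and 1003 of untreated cells (0.25, SE 0.07, adjusted p 0.014), a call that was lost without untreated 2 (adjusted p 0.054). The asparaginase and combination comparisons share the untreated libraries.

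Against asparaginase alone, the combination had 4 members lower and 1 higher, against 12% and 9.79% of all genes. The counts were 9 lower and 1 higher without the libraries that stood apart. The lower ones with all libraries were RPL36A, RPS2, RPL12 and RPL3, and the higher one was RPS27L. RPS2 differed by -0.36 (SE 0.05, adjusted p 0.00072). RPL12, at the base of the stalk that recruits elongation factors (chr9:127447674-127451405, minus strand), stood at 255, 277 and 276 FPKM with asparaginase and 231, 223 and 227 with the combination (-0.24, SE 0.05, adjusted p 0.0088). RPL3, which reaches toward the peptidyl transferase centre, stood at 357, 350 and 352 FPKM and at 306, 301 and 305 (-0.22, SE 0.04, adjusted p 0.0042). In RPS2, RPL12 and RPL3 the groups did not overlap.

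RPL36A (chrX:101390824-101396154, plus strand) was the 1 member whose change with the combination departed from the sum of the single drug changes, against 5.58% of all genes. It stood at 2.65, 2.70 and 2 FPKM in untreated cells, at 2.76, 2.71 and 2.72 with ibrutinib and at 2.63, 2.88 and 2.67 with asparaginase. With both drugs it stood at 1.71, 1.60 and 1.78 FPKM, below all other Nalm6 libraries (departure -0.59, SE 0.12, adjusted p 0.017). Exons of a read-through gene, RPL36A-HNRNPH2, cover 8.4% of the 3964 bases of exon counted for it, so reads there cannot be told apart. How much of the message lies in that shared part was not tested. The gene had 85 to 202 reads in the 24 libraries of both lines. At this level a difference on the log2(FPKM + 1) scale understates the fold. Without the libraries that stood apart, 15 members departed, 11 of them downward, where 7.09% of all genes departed upward and 5.3% downward. Without combination 1 alone 2 members did.

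Against ibrutinib alone, the combination had 43 members lower and 3 higher, against 27.7% and 29.5% of all genes. The median member differed by -0.21. After quantile normalization the median was -0.01, with 24 members higher and 25 lower, against 27.8% and 27.5% of all genes. Without the libraries that stood apart the counts were 49 lower and 8 higher. RPL22L1 differed by -0.89 (SE 0.12, adjusted p 0.0001) and RPS2 by -0.83 (SE 0.05, adjusted p 2.4e-07). The largest fitted difference was that of RPL26 (-1.31, SE 0.37, adjusted p 0.01). Its libraries spread widely, with 15.9, 37.2 and 16.3 FPKM in untreated Nalm6 cells alone. Exons of AC135178.2, on the same strand, cover 14.3% of the exon length of RPL26, and the part of this overlap in its level was not tested. RPS19 was among the 3 higher members (0.31, SE 0.10, adjusted p 0.024), at 235, 238 and 245 FPKM with ibrutinib and 259, 323 and 313 with the combination.

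Ibrutinib alone changed no tested member in Nalm6 past the threshold by limma, where 4.99% of all genes rose and 7.46% fell. At an unadjusted p under 0.05 there were 8 of 83, a threshold for which the share of all genes is not given here. Limma voom on the recovered reads called 2 higher and 2 lower, where 5.78% of all genes were higher and 8.19% lower. The median member changed by -0.005 on the log2 scale. RPS26 stood at 108, 109 and 112 FPKM, below the 121, 122 and 133 of untreated cells (-0.19, SE 0.06, adjusted p 0.062). The result moved with the libraries that stood apart. Without them 11 members were higher and 13 lower, where 9.6% of all genes were higher and 16.2% lower. Without untreated 2 alone 3 members were higher and 1 lower.

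In Sem with ibrutinib, 7 of 82 tested members were higher than in untreated cells and 6 lower, against 20.3% and 21.3% of all genes. All 7 higher members and 5 of the lower ones belong to the large subunit. Without untreated 2 the counts were 3 higher and 7 lower, and rescaled so that every library has the same sum (TPM) they were 36 and 3. Under TPM rescaling 29.1% of all genes were higher and 15.1% lower. RPS26 fell from 91.0, 74.5 and 92.6 FPKM to 54.3, 47.6 and 55.8 (-0.70, SE 0.08, adjusted p 6.9e-05). RPL26L1 fell from 29.1, 23.1 and 29.8 FPKM to 17.3, 19.3 and 18.4 (-0.55, SE 0.09, adjusted p 0.00049). Both genes had every treated library below every untreated one.

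The members that rose with ibrutinib in Sem included RPL22, from 51.7, 46.1 and 52.6 FPKM to 63.1, 61.5 and 65.1 (0.33, SE 0.05, adjusted p 0.00055). RPL3 rose from 609, 581 and 615 FPKM to 706, 721 and 729 (0.26, SE 0.05, adjusted p 0.0013). RPL12 (0.27, SE 0.07, adjusted p 0.013) and RPL15, a protein of the large subunit core (0.19, SE 0.06, adjusted p 0.024), also passed the test. Only 3 members were higher without untreated 2, so not all of these named calls held there. RPL17 (-0.34, adjusted p 0.024) and RPL36AL (-0.32, SE 0.07, adjusted p 0.0026) were lower. Of the exon length of RPL17, 35.3% is shared with other genes, among them the read-through gene RPL17-C18orf32.

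With asparaginase alone in Sem, 2 members were higher and 7 lower, against 11.4% and 15.1% of all genes. Without untreated 2, 1 was higher and 11 lower, without untreated 3 the counts were 1 and 3, and without asparaginase 2 they were 2 and 3. RPS26 fell to 51.0, 49.4 and 52.5 FPKM (-0.74, SE 0.08, adjusted p 9.1e-05), and RPL26L1 to 21.9, 20.5 and 21.1 (-0.35, SE 0.09, adjusted p 0.012), a call lost without untreated 3 (adjusted p 0.051). RPL24 and RPL36AL fell by 0.23 and 0.25 on the log2 scale (adjusted p 0.019 and 0.016). The 2 higher members were RPL22 (0.23, SE 0.05, adjusted p 0.0083) and RPL12 (0.22, SE 0.07, adjusted p 0.049). Since 1 member was higher without untreated 2, and 1 without untreated 3, both calls did not hold together in either fit.

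With the combination in Sem, 39 of 82 tested members were higher and 5 lower than in untreated cells, against 26.6% and 26.3% of all genes. Both subunits held higher members, 24 of 51 in the large and 15 of 31 in the small subunit. The median member changed by 0.20, with a median of 0.02 over all genes. The counts were 28 higher and 5 lower without untreated 2, with a median of 0.11, and 25 and 4 without combination 2. No Sem library stood apart by the rule that marked the Nalm6 libraries.

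RPL12 rose from 383, 326 and 381 FPKM to 465, 478 and 511 (0.42, SE 0.07, adjusted p 0.00069). RPL31 rose to 208, 225 and 220 FPKM (0.43, SE 0.11, adjusted p 0.0074), and RPL39L to 19.6, 23.6 and 22.2 (0.40, SE 0.11, adjusted p 0.012). In these genes every combination library lay above every untreated one. RPS27 rose from 625, 447 and 671 FPKM to 743, 899 and 788 (0.50, SE 0.14, adjusted p 0.013). Its untreated replicate 2 lay far below the others, and the call was lost without combination 2 (adjusted p 0.051).

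The 5 lower members in Sem were RPS26, RPL26L1, RPL36AL, RPL7L1 and RPL22L1. RPS26 fell to 35.3, 38.8 and 38.1 FPKM (-1.17, SE 0.08, adjusted p 7e-07) and RPL26L1 to 16.9, 18.5 and 16 (-0.64, SE 0.09, adjusted p 8.9e-05). RPL7L1, a paralogue that takes part in large subunit assembly, fell from 36, 35.3 and 37.9 FPKM to 29.9, 32.3 and 31.1 (-0.22, SE 0.04, adjusted p 0.00035). RPL36AL fell by 0.26 (adjusted p 0.0066), a call lost after quantile normalization (-0.01, adjusted p 0.92). RPL22L1 stood at 9.60, 10.5 and 10.8 FPKM against 12.4, 10.6 and 12 (-0.17, SE 0.06, adjusted p 0.049), a call lost under TPM rescaling (adjusted p 0.25). Of these 5 genes, 4 are paralogues with an L or L1 in the name.

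Members with known roles outside peptide synthesis or in specific complexes lay on both sides of the threshold. Of the stalk proteins, RPLP0 rose with the combination in Sem (0.18, SE 0.07, adjusted p 0.045), and RPLP1 (0.17, adjusted p 0.40) and RPLP2 (0.05, adjusted p 0.78) did not pass. RPL5 and RPL11, which with ribosomal RNA form the particle that binds MDM2, rose by 0.36 (adjusted p 0.0019) and 0.27 (adjusted p 0.0029) in Sem. In Nalm6 they changed by -0.01 and -0.22 with the combination (adjusted p 0.79 and 0.11). RPS6, a substrate of the S6 kinases, rose in Sem from 988, 1012 and 1038 FPKM to 1138, 1198 and 1185 (0.21, SE 0.07, adjusted p 0.019). RPSA, also known as a laminin receptor, fell in Nalm6 from 385, 377 and 432 FPKM to 277, 284 and 282 (-0.50, SE 0.07, adjusted p 6.6e-05). RPS27A, which is made as a fusion with ubiquitin, did not pass in either line (0.02 and 0.25, adjusted p 0.77 and 0.25).

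Against asparaginase alone in Sem, the combination had 33 members higher and 3 lower, against 18.6% and 19.8% of all genes. Without asparaginase 2 there were 18 higher and 3 lower, and without combination 2 there were 19 and 3. RPL15 stood at 211, 203 and 212 FPKM with asparaginase and 256, 280 and 282 with the combination (0.38, SE 0.06, adjusted p 0.00045). RPS25, which viral internal ribosome entry sites need, stood at 499, 472 and 548 FPKM and at 631, 629 and 641 (0.32, SE 0.06, adjusted p 0.0013). RPS9, a protein near the decoding region, differed by 0.32 (SE 0.07, adjusted p 0.0037). The 3 lower members were RPS26 (-0.44, adjusted p 0.0017), RPL26L1 (-0.29, adjusted p 0.02) and RPL7L1 (-0.22, adjusted p 0.00068).

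Against ibrutinib alone in Sem, only RPS26 passed the test (-0.48, SE 0.08, adjusted p 0.0035), against 12.1% of all genes called in either direction. Limma voom called 17 members, 15 higher and 2 lower, where 6.91% of all genes were higher and 9.47% lower. The median over members was 0.12. No member departed from the sum of the single drug changes by limma, against 1.53% of all genes. At an unadjusted p under 0.05 there were 12 of 82, limma voom called 3, and the limma count was 4 without untreated 2. With limma voom 1.92% of all genes departed upward and 2.37% downward. The share of all genes at the unadjusted threshold is not given here. The median departure was 0.10 as deposited (0.19 without untreated 2), but 0.02 after TPM rescaling, where 2 members departed downward, and -0.001 after quantile normalization. After TPM rescaling 2.59% of all genes departed downward.

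**Figure D2:**
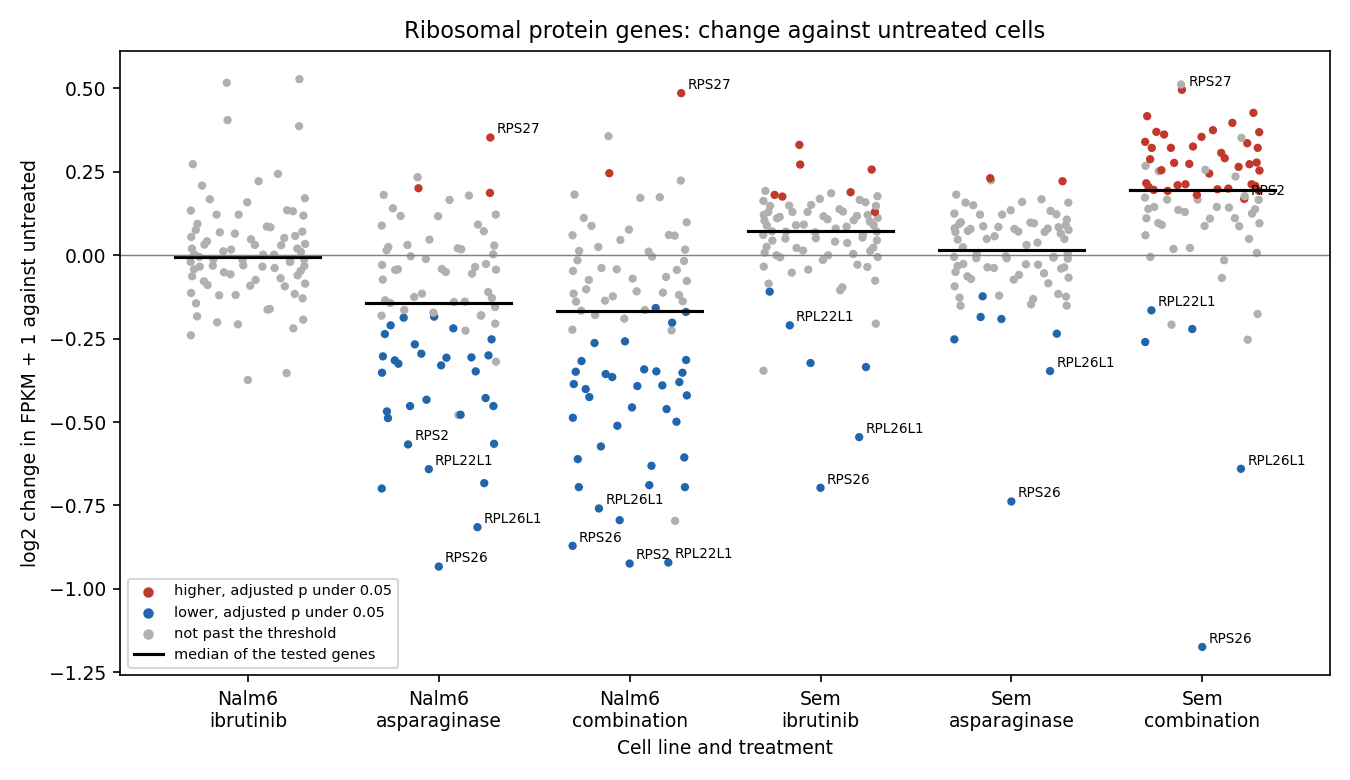
Log2 change in FPKM + 1 of each tested member against untreated cells for each treatment in Nalm6 and Sem, 1 point per gene, red or blue where it passed the test upward or downward, with a black line at the median and the deposited scaling. In Nalm6 the called members lie mostly below 0 with asparaginase (31 of 34) and the combination (37 of 39), a balance that turned after quantile normalization, and in Sem mostly above 0 with the combination (39 of 44).

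RPS26 was the member with the lowest change in Nalm6 with asparaginase and in Sem under every treatment. Its 8 groups, from high to low mean, were untreated Nalm6 (121, 122 and 133 FPKM), ibrutinib Nalm6 (108, 109 and 112), untreated Sem (91.0, 74.5 and 92.6), combination Nalm6 (68.9, 65.6 and 69.8), asparaginase Nalm6 (59.5, 69.8 and 66.6), ibrutinib Sem (54.3, 47.6 and 55.8), asparaginase Sem (51.0, 49.4 and 52.5) and combination Sem (35.3, 38.8 and 38.1). Neighbours in this order that overlapped were the combination and asparaginase in Nalm6, which did not differ past the threshold (0.06, adjusted p 0.52), and ibrutinib and asparaginase in Sem, a pair that was not tested. Within a line, the comparisons of RPS26 with untreated cells share those 3 untreated libraries.

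**Figure D3:**
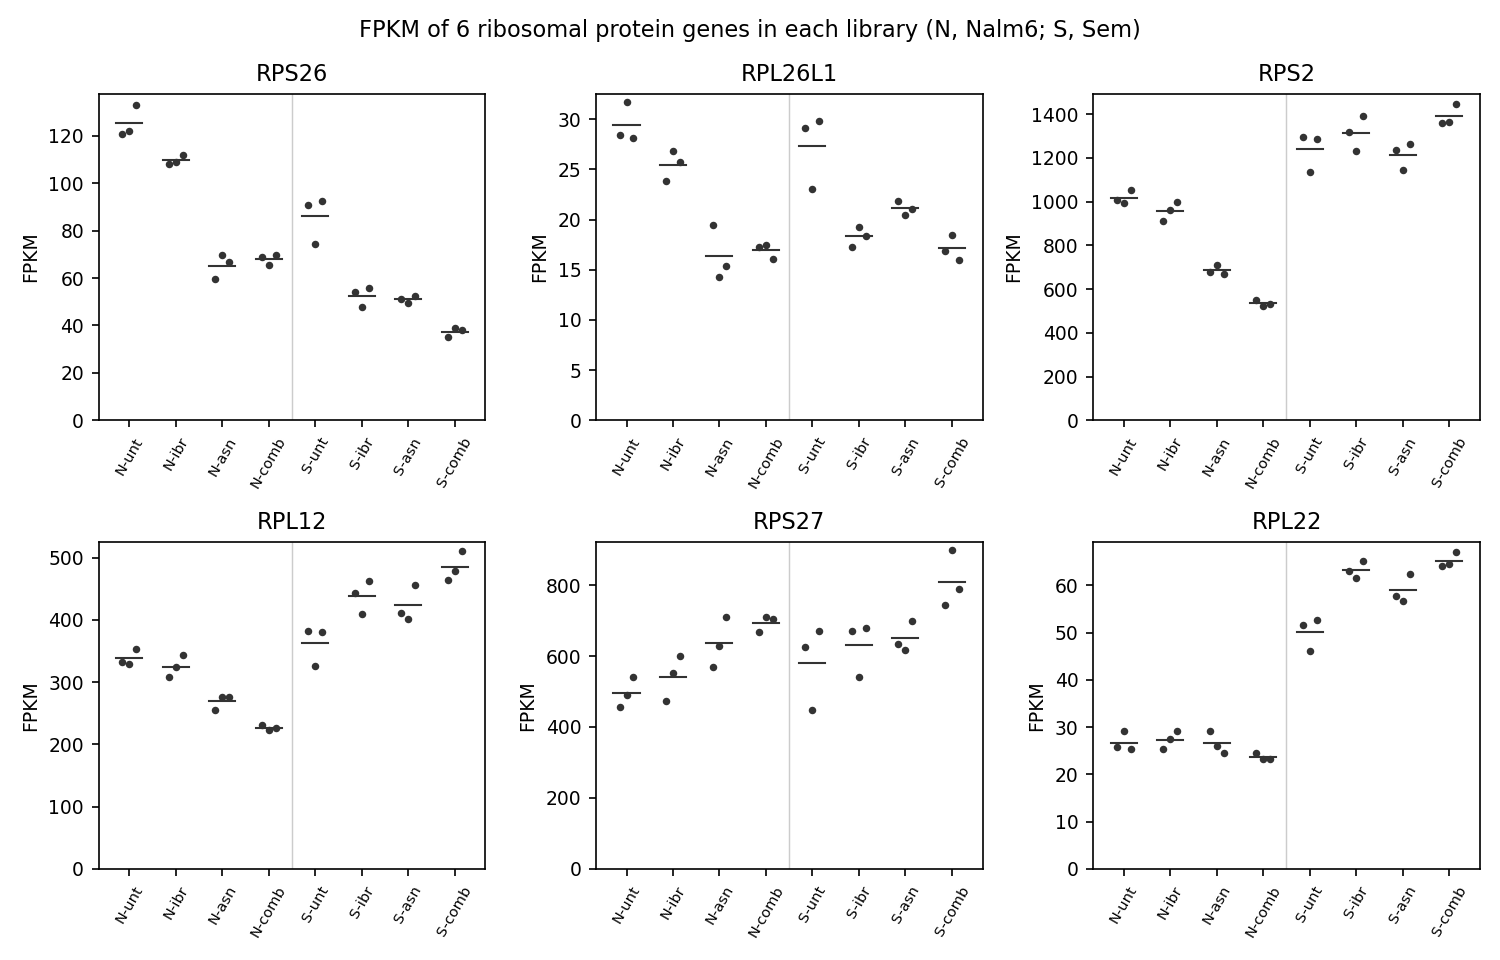
FPKM of RPS26, RPL26L1, RPS2, RPL12, RPS27 and RPL22 in each of the 24 libraries, 1 point per library and a line at each group mean, for Nalm6 (N) and Sem (S) untreated or given ibrutinib (ibr), asparaginase (asn) or both (comb). RPS26 stands at 121 to 133 FPKM in untreated Nalm6 and at 35.3 to 38.8 in Sem with the combination, and RPS2 falls to 524 to 550 FPKM in Nalm6 with the combination while it stands at 1360 to 1448 in Sem.

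The effects of a drug were compared between the lines in a fit of all 24 libraries. The combination effect was higher in Sem than in Nalm6 for 47 of 83 members and lower for 1, against 22.2% and 18.6% of all genes. The median difference was 0.35 on the log2 scale (all genes, 0.02). All 34 called large subunit genes (of 51) differed upward, and in the small subunit 13 of 32 differed upward and 1 downward. Without the libraries that stood apart 50 differed upward. Without Sem untreated 2 there were 37 upward and 1 downward, with a median of 0.25. After quantile normalization 22 differed upward and 2 downward, against 20.9% and 18.6% of all genes.

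RPS2 showed the widest difference (1.09, SE 0.08, adjusted p 3.9e-09): it fell to 524 to 550 FPKM in Nalm6 and stood at 1360, 1364 and 1448 in Sem against 1294, 1136 and 1286 untreated. RPL12 fell from 333, 329 and 354 FPKM to 231, 223 and 227 in Nalm6 and rose in Sem, a difference of 0.99 (SE 0.09, adjusted p 9.4e-08). RPS9 differed by 0.88 (SE 0.09, adjusted p 3.1e-07), with 276, 266 and 298 FPKM falling to 170, 173 and 176 in Nalm6. In Sem it stood at 271, 226 and 260 FPKM untreated and 271, 294 and 299 with the combination. RPL22L1 differed by 0.76 (SE 0.14, adjusted p 0.00035). RPS26 was the 1 member with a lower combination effect in Sem (-0.30, SE 0.11, adjusted p 0.028), a call that was lost without the libraries that stood apart (adjusted p 0.066) and without any one of 6 single libraries (untreated 1, untreated 2 and combination 3 of Nalm6, and untreated 1, untreated 3 and combination 1 of Sem).

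With the combination, 13 members passed the test downward in Nalm6 and upward in Sem: RPL3, RPL4, RPL6, RPL7, RPL10A, RPL12, RPL29, RPL32, RPL41, RPS2, RPS4X, RPS9 and RPS25. RPS26, RPL26L1, RPL36AL, RPL7L1 and RPL22L1 passed downward in both lines, which is 5 of the 5 lower members of Sem and 5 of the 37 of Nalm6. RPS27 passed upward in both. The share of all genes called in opposite directions, or downward in both lines, was not computed. These calls are for all libraries under the deposited scaling. After quantile normalization 30 members were higher and 18 lower in Nalm6. In Sem 28 were higher without untreated 2 and 25 without combination 2, and RPS2 lay at the threshold there (adjusted p 0.05 after rounding). Over the 82 members tested in both lines the changes had a Pearson r of 0.61, given as a description, since genes are not independent replicates.

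**Figure D4:**
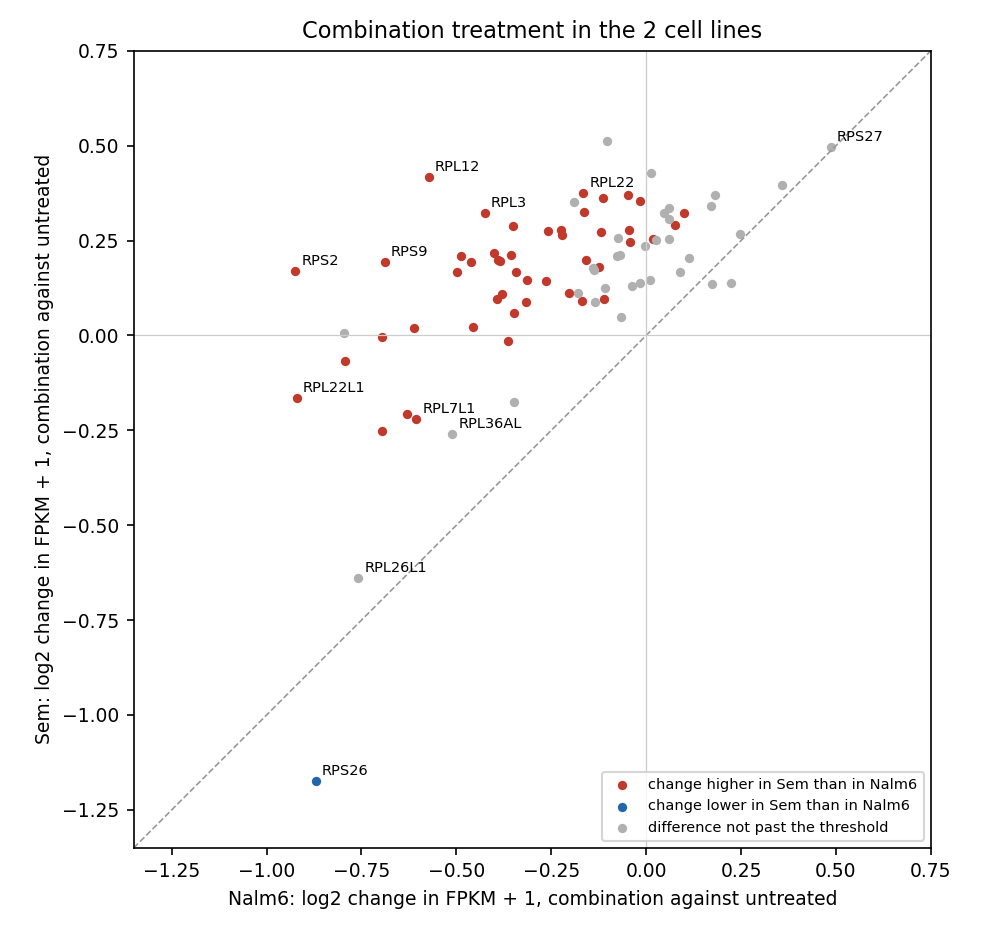
Log2 change in FPKM + 1 of each member with the combination in Nalm6 (horizontal axis) against that in Sem (vertical axis), 1 point per member tested in both lines (82), coloured where the change differed between the lines, with a dashed line of equal change. RPS26, RPL26L1, RPL36AL, RPL7L1 and RPL22L1 lie below 0 on both axes, and RPS2 and RPL12 lie below 0 in Nalm6 and above 0 in Sem, under the deposited scaling.

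The asparaginase effect was higher in Sem for 19 members and lower for none, against 17.7% and 15.7% of all genes, with a median difference of 0.17. With the libraries that stood apart left out, 21 were higher and none lower, and without Sem untreated 2 there were 15 higher and 1 lower, with a median of 0.06. After quantile normalization 7 were higher and 12 lower, against 15.9% and 14.7% of all genes, so this direction depended on the scaling. RPL22L1 differed by 0.57 (SE 0.14, adjusted p 0.005), RPL12 by 0.55 (SE 0.09, adjusted p 0.00016), RPS2 by 0.54 (SE 0.08, adjusted p 4.7e-05) and RPL8 by 0.50 (SE 0.10, adjusted p 0.0005). The ibrutinib effect differed for 4 members, against 13.7% of all genes: RPS26 was lower in Sem (-0.50, SE 0.11, adjusted p 0.0031), and RPL12 (0.33, SE 0.09, adjusted p 0.023), RPL22 (0.30, SE 0.10, adjusted p 0.043) and RPL3 (0.27, SE 0.06, adjusted p 0.004) were higher. Without Nalm6 ibrutinib 1, or without Sem ibrutinib 3, 2 members differed. Without Sem untreated 2, 1 was higher and 2 lower, with a median of -0.03 in place of 0.06, and RPL12 (adjusted p 0.056) and RPL22 (adjusted p 0.10) no longer passed. With the libraries that stood apart left out 11 differed, 6 upward and 5 downward, where 10.5% and 9.01% of all genes did.

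The balance of higher and lower members in Nalm6 depended on the scaling of the libraries. It stayed downward after centring on genes that are no members, with 3 higher and 32 lower with asparaginase and 2 and 39 with the combination. With limma voom the counts were 3 and 35, and 3 and 42. The GC and length correction gave 1 and 39, and 4 and 40. The balance was lost or turned under the next 2 scalings. TPM rescaling moved the median of all genes by 0.15 with asparaginase and 0.17 with the combination. The median member then changed by 0.01 and 0.003, with 18 higher and 18 lower members with asparaginase and 20 higher and 27 lower with the combination. Of all genes, 38.4% were then higher and 19.3% lower with asparaginase, and 42.1% and 23% with the combination. Relative to the median of all genes, members were at -0.16 and -0.19 both as deposited and after TPM rescaling. Quantile normalization, which gives all libraries the same distribution, put members above the median of all genes by 0.15 and 0.16, with 35 and 30 members higher. Of all genes, 24.6% and 30% were then higher.

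In Sem with the combination the balance stayed upward under each scaling, with 39 higher and 5 lower as deposited, 58 and 4 after TPM rescaling, and 49 and 4 after quantile normalization. After TPM rescaling 34.3% of all genes were higher and 20.2% lower, and after quantile normalization 24.7% and 24.4%. For the single drugs in Sem it did not. With ibrutinib 7 higher and 6 lower members became 37 and 5 after quantile normalization, and with asparaginase 2 and 7 became 10 and 2 under TPM rescaling and 20 and 3 under quantile normalization. TPM rescaling put 20.1% of all genes higher and 8.56% lower with asparaginase. Quantile normalization put 19.8% higher and 17.9% lower with ibrutinib, and 10.9% and 11.5% with asparaginase. The untreated difference between the lines stayed upward, with 59 higher and 7 lower members under TPM rescaling and 56 and 10 under quantile normalization. Of all genes, 32.3% were then higher and 33.9% lower under TPM rescaling, and 29.8% and 36.3% under quantile normalization. RPS26 was lower in Sem with ibrutinib, and in both lines with asparaginase and with the combination, under each of these scalings.

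**Figure D5:**
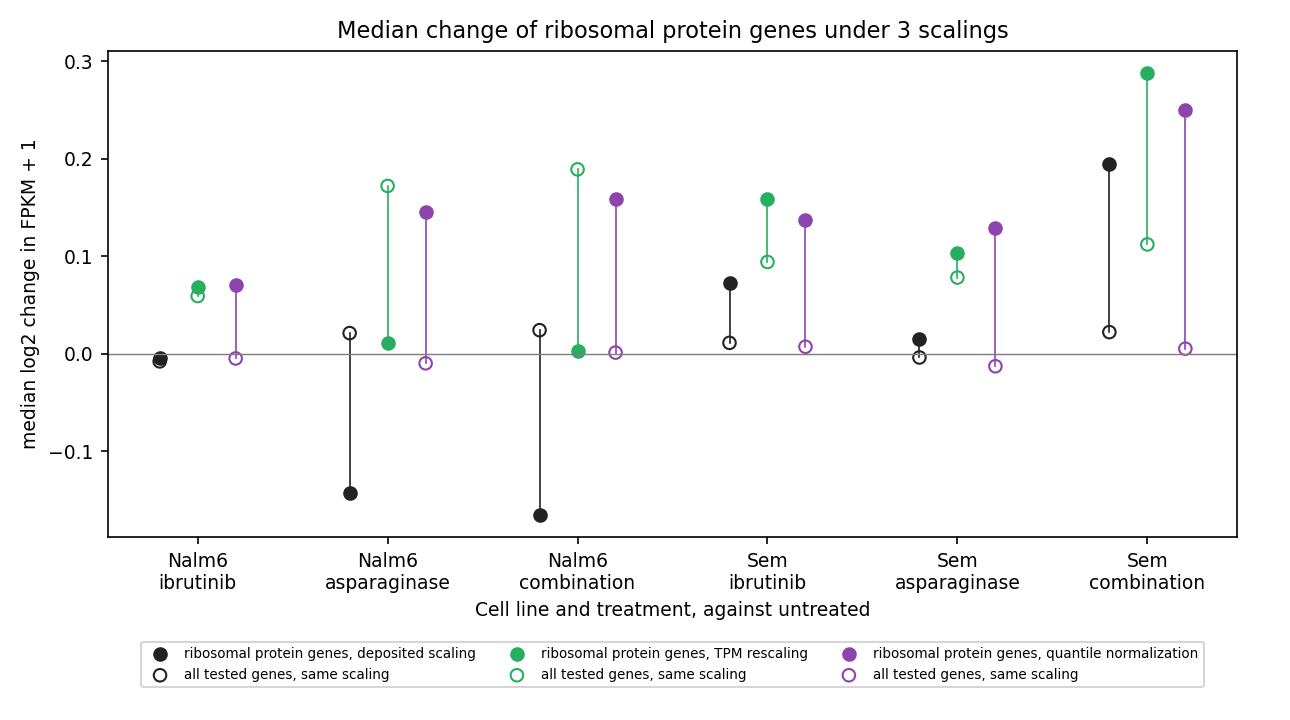
Median log2 change in FPKM + 1 against untreated cells (vertical axis) for each line and treatment, with filled points for the members and open points for all tested genes, under the deposited scaling, TPM rescaling and quantile normalization. In Nalm6 with asparaginase the members' median goes from -0.14 as deposited to 0.01 after TPM rescaling and 0.15 after quantile normalization, and in Sem with the combination the filled points lie above the open ones in all 3 scalings.

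Members with and without an annotated TOP start were set side by side. In Nalm6 with the combination, the 47 with a TOP start had a median change of -0.14 with 2 higher and 18 lower. The 20 tested members with other starts had a median of -0.30 with none higher and 12 lower. In Sem with the combination, 46 with a TOP start had a median of 0.19 with 21 higher and 1 lower, and 20 without had 0.15 with 7 higher and 4 lower. RPS26, RPL36AL and RPL7L1, whose starts are printed above without a TOP start, were 3 of those 4. By the wider count, within 5 bases of the start, the printed RPL36AL start is a TOP start. The difference between the classes was not tested.

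Other genes of the translation machinery were followed through lists that hold no member. Their counts stand beside the shares of all genes given above for the same comparisons. Of 19 tested messages with known TOP tracts outside the members, such as elongation and initiation factors, 2 were higher and 8 lower in Nalm6 with the combination. The lowest was NPM1 (-1.29), a nucleolar chaperone of ribosome assembly, and the highest TPT1 (0.80), a translationally controlled tumour protein. In Sem 14 of the 19 were higher and 1 lower with the combination, led by the elongation factor EEF2 (0.74), the histone chaperone NAP1L1 (0.58), which the list of assembly partners also holds, and the initiation factor subunit EIF3L (0.50). In untreated Sem 16 were higher than in Nalm6 and 1 lower.

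Proteins of the mitochondrial ribosome moved downward in both lines. Of 77 tested, none rose and 69 fell in Nalm6 with asparaginase (median -0.58) and 68 with the combination (median -0.71). In Sem none rose and 59 fell with ibrutinib, 47 with asparaginase and 63 with the combination (median -0.40). In Sem with the combination, therefore, mitochondrial ribosomal proteins were mostly lower while 39 cytoplasmic ones were higher.

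Among 15 chaperones and assembly partners of ribosomal proteins, 14 fell in Nalm6 with asparaginase and 13 with the combination, and none rose. The lowest with the combination were IPO5, an importin (-1.19), LTV1, a small subunit assembly factor (-1.18), and GRWD1, a chaperone of RPL3 (-1.17). In Sem with the combination 11 fell and 1, NAP1L1, rose, with LTV1 at -0.76 and BCCIP, a partner of RPL23, at -0.61. Of 12 regulators of TOP messages, 11 fell in Nalm6 with the combination, among them the cap-binding protein EIF4E (-0.78), its inhibitor EIF4EBP1 (-0.75) and LARP4 (-0.73), and 7 fell in Sem. EIF4EBP1 rose in Sem with asparaginase (0.62).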

How the data were processed

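Total RNA of 24 libraries (8 groups of 3) was sequenced after RNeasy extraction and NEBNext Ultra library preparation, per the labels' protocols. Whether the libraries were stranded is not stated, so reads of a gene and of a partner that overlaps it on the other strand cannot be told apart. The deposited values are FPKM per gene on human build hg38 (GRCh38), and the authors used fastp, STAR and featureCounts, per the submitters' processing notes, with versions not given in the sources used here. The deposited file had lost the decimal point of all 299165 values of 1 or more (of 1409640), and the 206596 values between 0 and 1 were intact. Since each intact FPKM times the gene length is a whole multiple of 1 read's worth in its library, whole reads were recovered, and the decimal point was put where all 12 libraries of a line gave whole reads and similar levels. Of the members' values 1975 were restored this way, all with a posterior of at least 0.99. On simulated damage 99.987% of values came back right, and 0 of 1979 member values came back wrong. Beyond reads and length, FPKM as the authors deposited them carried 1 more factor for each library, between 0.919 and 1.093, whose origin is not stated.

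A gene was tested where 3 or more libraries reached 1 FPKM, with limma 3.58.1 (R 4.3.3) on log2(FPKM + 1), two-sided, with a trend on mean level and Benjamini-Hochberg adjustment over all genes tested. Each line was fitted on its 12 libraries (8 residual degrees of freedom) and both lines on all 24 (16), in 16 comparisons. An interaction is the combination change minus the sum of the single drug changes. Tables were made with Python 3.11.15, pandas 2.3.3 and numpy 2.4.6. The members and the lists of other genes were chosen with earlier results of these data known. Named in each comparison were the called members with the 4 highest and the 4 lowest changes, stalk, MDM2-binding, signalling and paralogue members, and the 3 genes called with the largest change in each other list. The members listed by their direction in both lines were chosen after their values were seen. On simulated counts limma called 34.78% of genes changed 1.25-fold in the Nalm6 asparaginase comparison (12243 genes) and 61.7% in that of Sem (12637 genes). At 1.5-fold it called 86.05% and 78.72%, and at 2-fold 89.13% and 95.83%. Alternatives covered TPM rescaling, quantile normalization, centring on genes that are no members, a pseudocount of 0.1, no filter, a GC and length correction, a replicate block, limma voom on recovered reads, both lines in 1 fit, and libraries left out. Identity between paralogous proteins was not computed here. Of the members, 51 share exon bases with another gene, and none shares at least 50% of its exon length with a gene on the same strand. Counted on either strand, RPL10 shares 55.5% of its exon length with other genes, against 2.8% on the same strand.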

Additional observations from a re-analysis of the deposited data

Results flagged for a closer look

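The following results differed between groups by a test of the difference itself (limma, all 24 libraries, Benjamini-Hochberg adjusted p under 0.05). The ibrutinib effect differed between the lines for 4 members: RPL12 (0.33), RPL22 (0.30) and RPL3 (0.27) were higher in Sem, and RPS26 (-0.50) was lower, on the log2 scale. The asparaginase effect differed for 19 members, of which RPL22L1 (0.57), RPL12 (0.55), RPS2 (0.54) and RPL8 (0.50) were named. The combination effect differed for 48 members, among them RPS2 (1.09), RPL12 (0.99), RPS9 (0.88) and RPL22L1 (0.76), all higher in Sem, and RPS26 (-0.30), lower in Sem. In Nalm6, 1 member, RPL36A, changed with the combination by other than the sum of the single drug changes (-0.59, 12 libraries).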

How the results depend on the processing

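Counts of members called depended on the settings as follows, each against the count in the report. TPM rescaling gave 6 for ibrutinib in Nalm6 (report 0), 4 for the Nalm6 interaction (1), 39 for ibrutinib in Sem (13), 5 for the combination against ibrutinib in Sem (1) and 2 for the Sem interaction (0). Quantile normalization gave 4 for ibrutinib in Nalm6, 10 for the combination against asparaginase in Nalm6 (5), 4 for the Nalm6 interaction, 42 for ibrutinib in Sem, 23 for asparaginase in Sem (9) and 8 for the combination against ibrutinib in Sem. It gave 7 for the difference between lines in the ibrutinib effect (4) and 24 for that in the combination effect (48). It also turned the direction of RPL3 (0.037) and RPL7 (0.014) with asparaginase in Nalm6 and of RPL7L1 (0.035) with ibrutinib in Sem, none past the threshold then. Centring on genes that are no members gave 2 for the combination against ibrutinib in Sem. With no filter the counts were 8 for ibrutinib, 4 for asparaginase, 26 for the combination (44) and 20 for the combination against asparaginase (36) in Sem, and 2 for the difference in the ibrutinib effect; more genes were tested there. The GC and length correction gave 3 for ibrutinib, 9 for the combination against asparaginase and 2 for the interaction in Nalm6. Limma voom gave 4 for ibrutinib and 2 for the interaction in Nalm6, and 28 for ibrutinib, 55 for the combination against asparaginase, 17 for the combination against ibrutinib and 3 for the interaction in Sem. Both lines in 1 fit gave 2 for ibrutinib and 3 for the interaction in Nalm6. Without the Nalm6 libraries that stood apart, the counts were 24 for ibrutinib, 10 for the combination against asparaginase, 15 for the interaction and 11 for the difference in the ibrutinib effect; no Sem library stood apart, so this was not run within Sem. The cause of these shifts was not tested.

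Replicate numbers gave no ground for pairing: deviations of libraries with the same number correlated at -0.196 to 0.375 in Nalm6 and -0.027 to 0.101 in Sem. With the replicate block the counts were 1 for ibrutinib in Nalm6, 22 for ibrutinib in Sem and 2 for the combination against ibrutinib in Sem.

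With each library left out in turn, the counts ranged from 0 to 4 for ibrutinib (4 without untreated 2) and 1 to 2 for the interaction in Nalm6 (2 without combination 1). In Sem they ranged from 4 to 12 for asparaginase, 29 to 50 for the combination, 21 to 35 for the combination against asparaginase, 1 to 2 for the combination against ibrutinib and 0 to 4 for the interaction. The difference in the ibrutinib effect ranged from 2 to 4. Of 2520 values of named members under the alternatives, 2306 kept direction and side of the threshold, 211 kept direction and lost the call, and 3 turned. What depth adds to the error of single members was not tested.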
